A study of Mus musculus with 6 samples.

Results

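In the chromatin of haematopoietic stem cells (HSCs) sorted from mouse bone marrow, 3640 of 82993 accessible regions (4.39%) were called in all 3 libraries from mice given tunicamycin and in DMSO replicate 1, but in neither DMSO replicate 2 nor DMSO replicate 3. These regions were selected on their calls alone, that is, on the presence or absence of an ATAC-seq peak, so the pattern of calls, and the contrast between the groups that it holds, describe the choice and were not tested. The 82993 regions are the peaks of all 6 libraries on chromosomes 1 to 19, X and Y, joined into one region wherever they shared 1 bp or more. The tunicamycin group comprised 3 libraries of HSCs from wild-type C57BL/6J mice that had received an intraperitoneal dose of 2 mg/kg tunicamycin, and the DMSO group comprised 3 libraries of HSCs from mice of the same strain and genotype that had received DMSO, the vehicle, by the same route. The labels give the sort phenotype of both groups as CD48-CD150+LSK and about 5000 cells per library. They give neither the animals' age or number nor the time between injection and sorting, so replicates may or may not come from separate animals.

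ATAC-seq uses a transposase that inserts sequencing adapters into DNA not covered by nucleosomes, so that reads pile up at promoters, enhancers and other accessible sites. Tunicamycin blocks the first step of N-linked glycosylation in the endoplasmic reticulum (ER), and the misfolded proteins that follow engage the unfolded protein response, whose sensors include ATF6, and the integrated stress response. HSCs sit at the top of blood formation, and their enhancers are bound by factors of the RUNX, ETS and GATA families. A peak caller reports a site where the local read pile-up passes a threshold, so a site of middling strength is reported in a library with many usable reads and may be missed in one with few. Read depth is unknown from peak lists, and a missing call does not show that a site was closed.

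The sequences below are stretches upstream of genes whose annotated start lies at one of the 3640 regions, taken from RefSeq on GRCm38.p6, the assembly also called mm10. Each is the 250 bases before the start, written 5′ to 3′ on the strand of the gene. The first 4 genes are those with the strongest of the 3640 regions at a promoter, and CpG dinucleotides are in capitals, because CpG content differed between promoters at these regions and promoters at regions shared by all libraries. Pirb, an inhibitory receptor of the immunoglobulin family that belongs to a group of closely related neighbouring genes, lies at chr7:3720383-3720632 on the minus strand, and 231 of the 250 bases fall in the region. Bnip1, an ER-associated SNARE protein, lies at chr17:26780829-26781078 on the plus strand, with 186 bases in the region. Rbm41, an RNA-binding protein, lies at chrX:139998596-139998845 on the minus strand, and Anpep, the aminopeptidase CD13 of myeloid cells, at chr7:79848211-79848460 on the minus strand, each with all 250 bases in the region.
Pirb: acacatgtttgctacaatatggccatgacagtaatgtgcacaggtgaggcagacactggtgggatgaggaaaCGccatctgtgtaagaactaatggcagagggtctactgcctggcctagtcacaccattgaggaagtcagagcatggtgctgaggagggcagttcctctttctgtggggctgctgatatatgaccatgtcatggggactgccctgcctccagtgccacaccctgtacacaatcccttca
Bnip1: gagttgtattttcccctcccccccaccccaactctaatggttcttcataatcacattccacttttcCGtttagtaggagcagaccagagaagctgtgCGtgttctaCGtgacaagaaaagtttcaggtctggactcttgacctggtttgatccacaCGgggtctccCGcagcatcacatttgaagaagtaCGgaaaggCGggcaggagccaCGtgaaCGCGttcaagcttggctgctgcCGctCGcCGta
Rbm41: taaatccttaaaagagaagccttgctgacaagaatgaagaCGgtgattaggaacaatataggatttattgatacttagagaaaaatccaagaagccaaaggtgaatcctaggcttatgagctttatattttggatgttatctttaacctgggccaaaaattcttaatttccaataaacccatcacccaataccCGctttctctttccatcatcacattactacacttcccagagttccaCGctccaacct
Anpep: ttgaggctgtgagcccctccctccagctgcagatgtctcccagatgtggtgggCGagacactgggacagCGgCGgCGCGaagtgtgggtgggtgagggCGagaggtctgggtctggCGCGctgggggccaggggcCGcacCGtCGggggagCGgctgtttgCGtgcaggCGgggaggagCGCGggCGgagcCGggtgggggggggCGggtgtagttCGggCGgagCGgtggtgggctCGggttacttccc
The stretches of Pirb, Bnip1, Rbm41 and Anpep held 1, 13, 3 and 23 CpG, so that strong regions of this pattern lay at promoters poor and rich in CpG alike. Another 2 promoters were chosen after their values were seen, as examples of transcription factor motifs. Gcn1, which activates the eIF2α kinase GCN2 of the integrated stress response, lies at chr5:115565013-115565262 on the plus strand, and the capitals mark the ETS letters CCGGAAG. Gzmb, the granzyme B of cytotoxic lymphocytes, lies at chr14:56262335-56262584 on the minus strand, and the capitals mark 1 match to the AP-1 letters TGANTCA and 2 to the RUNX letters TGTGGT.
Gcn1: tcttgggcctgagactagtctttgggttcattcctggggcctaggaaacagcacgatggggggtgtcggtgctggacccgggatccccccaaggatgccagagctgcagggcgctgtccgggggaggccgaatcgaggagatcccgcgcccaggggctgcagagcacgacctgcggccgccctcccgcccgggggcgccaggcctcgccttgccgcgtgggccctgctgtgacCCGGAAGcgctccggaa
Gzmb: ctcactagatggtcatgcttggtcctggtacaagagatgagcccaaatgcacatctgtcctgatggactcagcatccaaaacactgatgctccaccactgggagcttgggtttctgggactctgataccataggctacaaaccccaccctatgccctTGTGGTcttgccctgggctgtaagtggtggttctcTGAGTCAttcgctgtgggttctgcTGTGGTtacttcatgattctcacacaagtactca
At the Gcn1 promoter the fold enrichment, the authors' deposited ratio of the pile-up over background at a peak, was 7.53, 5.30 and 5.71 in tunicamycin replicates 1, 2 and 3 and 7.86 in DMSO replicate 1. At the Gzmb promoter it was 5.92, 9.03 and 11.7 in tunicamycin replicates 1, 2 and 3 and 7.05 in DMSO replicate 1. Neither promoter had a peak in DMSO replicates 2 and 3.

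The lists differed in length, with 44952, 56865 and 47789 peaks in tunicamycin replicates 1, 2 and 3 and 62478, 38217 and 28501 peaks in DMSO replicates 1, 2 and 3. DMSO replicate 1, the one DMSO library that the 3640 regions share with tunicamycin, had the longest list of all, and DMSO replicates 2 and 3 had the shortest. Of 10 HSC marker genes, Hlf, Mecom, Procr and Kit had a region called in all 6 libraries in the gene or at most 1 kb outside, and of 8 marker genes of other cells Cdh5 had one. Slamf1, which encodes the CD150 used in the sort, had no such region, nor did, among others, the HSC markers Ly6a, Tek, Hoxb5 and Fgd5 or the markers of other cells Elane, Mpo, Cd3e, Hbb-b1 and Lyz2. A region called in at least 1 library lay at 9 of the 10 HSC markers and at 5 of the 8 markers of other cells. A call in all 6 libraries is limited by the shortest list, so its absence does not show a closed gene.

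Among the 7389 regions called in exactly 4 libraries, the 3640 made up 49.3%, the most of any of the 15 possible sets of 4. The next set, tunicamycin replicates 2 and 3 with DMSO replicates 1 and 2, held 1223 regions. With DMSO replicate 2 or DMSO replicate 3 in place of DMSO replicate 1, the tunicamycin libraries shared 212 and 95 regions. A log-linear fit to the same 15 counts, in which each library has 1 effect, gave 3535 regions for the set of 3640, a ratio of 1.03. It gave 275 for the set with DMSO replicate 2 (ratio 0.772) and 72.0 for the set with DMSO replicate 3 (ratio 1.32). Every set that holds both DMSO replicates 2 and 3 exceeded its fitted number, at ratios of 1.18 to 2.28. Sets of 2 tunicamycin libraries with DMSO replicates 1 and 3 fell below it, at 0.792 to 0.831. With DMSO replicates 1 and 2 such sets were at 0.960 to 0.998. The fit with 1 effect per library thus left part of the joint calls of DMSO replicates 2 and 3 undescribed. The 3640 are themselves 49.3% of the regions fitted and so largely set their own fitted value, and the library effects also take up any difference that a whole group shares. The ratios are a description, without a test.

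**Figure D1:**
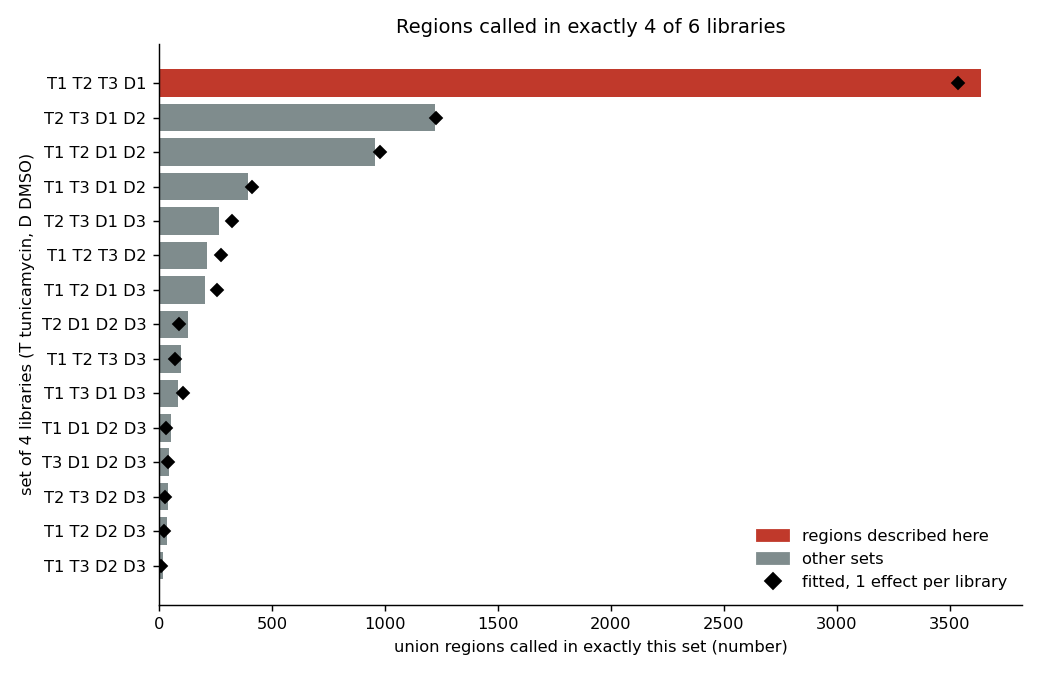
Number of union regions called in exactly 4 of 6 libraries, for each of the 15 sets of 4 libraries (bars, x axis: regions; T, tunicamycin; D, DMSO), with the number fitted from 1 effect per library (diamonds). The set described here holds 3640 regions against 3535 fitted, and the next set 1223 against 1226.

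DMSO replicate 1 called most of what the tunicamycin libraries shared outside DMSO replicates 2 and 3. Of 4207 regions called in all tunicamycin libraries and in neither DMSO replicate 2 nor 3, DMSO replicate 1 called 86.5% (exact binomial 95% interval 85.5 to 87.5). It also called 72.4% of all 79353 regions outside the 3640. Read from the other side, DMSO replicate 1 called 25576 regions that DMSO replicates 2 and 3 did not, and 3640 of these (14.2%) were called in all 3 tunicamycin libraries, 19.3% in 2 of them, 26.2% in 1 and 40.2% in none. Tunicamycin replicate 1 called 59.7% (58.5 to 61.0) of the 6094 regions otherwise sharing the pattern, and 31.4% (29.3 to 33.6) of the 1803 regions that were called in the other 2 tunicamycin libraries and in no DMSO library. For tunicamycin replicate 2 these shares were 83.4% of 4365 and 63.5% of 893, and for tunicamycin replicate 3 they were 67.4% of 5401 and 46.1% of 1231. Of all 79353 regions outside the 3640, tunicamycin replicates 1, 2 and 3 called 50.5%, 65.7% and 53.6%. Each tunicamycin library thus called more often a region that DMSO replicate 1 also called. All such intervals take regions as independent and hold counting error alone.

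The 3640 regions were weaker than regions shared by all libraries in each of the 4 libraries that called them. Strength was taken as the percentile of a peak's fold enrichment within its own list. Their median percentile was 35.0, 45.2 and 38.0 in tunicamycin replicates 1, 2 and 3 and 48.4 in DMSO replicate 1. Regions called in all 6 libraries had medians of 75.1, 79.4, 76.1 and 80.3 in the same libraries. In units of fold enrichment the medians of the 3640 were 4.74, 5.21 and 4.96 in tunicamycin replicates 1, 2 and 3 and 5.88 in DMSO replicate 1. The values ran from 2.26 to 11.0, 1.85 to 12.5 and 2.31 to 11.8 in the tunicamycin libraries and from 2.29 to 14.1 in DMSO replicate 1, so strong peaks were among them.

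**Figure D2:**
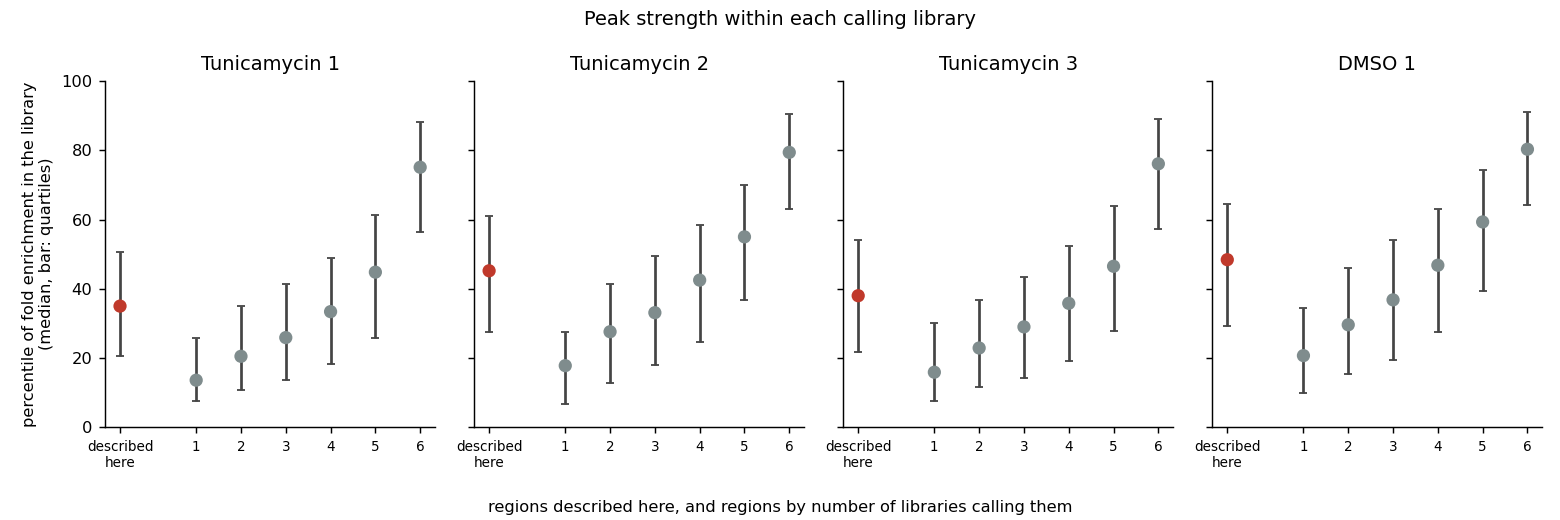
Percentile of fold enrichment within the list (y axis, 0 to 100) in tunicamycin replicates 1, 2 and 3 and DMSO replicate 1, for the 3640 regions described here (red) and for regions by the number of libraries calling them (grey; the 4-library class includes the 3640). Points are medians and bars quartiles. The red points, at 35.0, 45.2, 38.0 and 48.4, lie below those of regions called in 5 and 6 libraries in every panel.

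The lowest of the 4 percentiles was used to rank the 3640 regions, so that a region ranks high only where every calling library had it strong. Its median was 22.2 (quartiles 10.8 and 35.3), against 15.9 for the 3749 regions of the other sets of 4 libraries, 17.1 for regions called in 3, 24.3 for regions called in 5 and 54.7 for regions called in all 6. The other sets of 4 each include DMSO replicate 2 or 3, so their lowest percentile is over other lists. Among the 3640 the lowest percentile came from tunicamycin replicate 1 in 1323 regions (36.3%) and from DMSO replicate 1 in 546. Only 6 of the 3640 reached the 75th percentile in all 4 libraries, and 282 (7.75%) reached the 50th. At the other end 1095 (30.1%) stayed below the 50th percentile in all 4 and 56 below the 10th. The deposited q-value was at most 1e-05 in all 4 libraries for 2132 regions (58.6%) and in none for 17. In tunicamycin replicates 1, 2 and 3 and DMSO replicate 1 it was so for 79.5%, 84.5%, 83.4% and 92.3% of the 3640. Of all regions called in these libraries the shares were 84.6%, 79.8%, 86.1% and 86.9%.

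The libraries ranked the 3640 regions less alike than they ranked regions shared by all. Spearman's correlation of fold enrichment between pairs of the 4 libraries was 0.43 to 0.50 over the 3640, and 0.82 to 0.86 over the 20810 regions called in all 6. These correlations are across regions of the same libraries and are a description, and the 3640 span a narrower range of strength. The regions were 455 bp wide at the median (quartiles 362 and 582), against 384 bp for regions called in 3 libraries, 435 bp for other sets of 4, 527 bp for regions called in 5 and 775 bp for regions called in 6. The summits of the 4 calling libraries spread over 67.0 bp at the median and within 50 bp in 35.9% of the 3640. Over the same 4 libraries the spread was 60.0 bp (within 50 bp in 41.6%) in the 7988 regions that 1 of DMSO replicates 2 and 3 also called, and 48.0 bp (52.4%) in regions called in all 6.

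Among the 32438 regions called in all tunicamycin libraries and DMSO replicate 1, whatever the other DMSO libraries showed, 11.2% lacked a call in both DMSO replicates 2 and 3. That share was 31.0% in regions whose lowest percentile was under 10, 23.8% between 20 and 30, 12.9% between 40 and 50, 1.79% between 60 and 70 and 0.439% between 70 and 80. Between 80 and 90 it was 0.0536%, or 2 of 3728 regions, whose nearest genes were Map10 and Zfp462. Above 90 it was 0 of 2885, for which the exact 95% interval reaches 0.128%. The share without a call in DMSO replicates 2 and 3 thus fell at every step as strength in the other 4 libraries increased, and regions lacking a call in 1 of the pair behaved likewise from the 30th percentile on, at 40.1% between 30 and 40 and 0.277% above 90. The strength used here comes from the libraries that chose the regions, so this is a description.

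**Figure D3:**
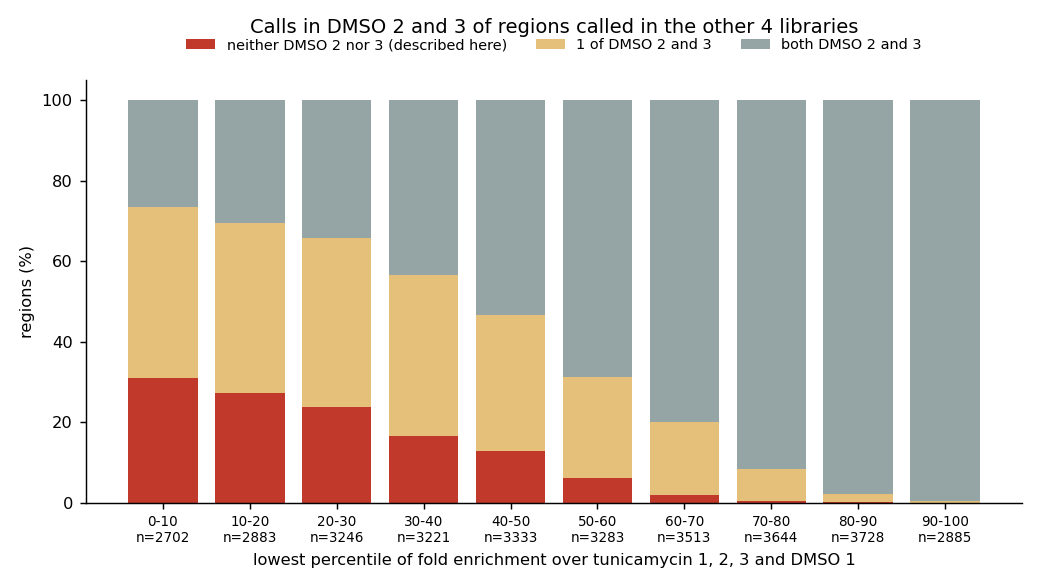
Regions called in tunicamycin replicates 1, 2, 3 and DMSO replicate 1, by the lowest percentile of fold enrichment over these 4 libraries (x axis, with the number of regions), and the percent called in neither, 1 or both of DMSO replicates 2 and 3 (stacked, y axis). The red share, the regions described here, goes from 31.0% in the weakest class to 0% in the strongest.

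Most of the 3640 did not keep the pattern once the lists were limited to one length. With each list limited to its 28501 peaks of highest −log10 q, 268 of the 3640 (7.36%) kept it and 976 (26.8%) were in no list. Tunicamycin replicates 1, 2 and 3 then held 40.2%, 36.3% and 39.3% of the 3640 and DMSO replicate 1 held 33.0%. In these lists 519 regions had the pattern. The sets with DMSO replicate 2 and DMSO replicate 3 in its place held 289 and 223 regions, so that the set was 15.4% of the 3377 regions called in exactly 4, where it had been 49.3% with the full lists.

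In position the 3640 regions were mostly away from gene ends, as were regions in general. Midpoints lay inside a protein-coding gene in 54.7% (1992 regions, interval 53.1 to 56.4), against 56.7% of all 82993 regions and 63.3% of those called in all 6 libraries. Within 1 kb of either end of a gene lay 12.4% (452 regions, 11.4 to 13.5), against 17.9% of all regions, 10.5% (9.49 to 11.5) of other sets of 4, 15.5% (14.7 to 16.3) of regions called in 5 and 41.3% (40.7 to 42.0) of regions called in 6. The share moved to 17.7% for regions with the pattern in lists of one length and to 19.9% when a call needed 50% cover. Within 5 kb of a gene end lay 26.6%, against 27.4% of other sets of 4, so that the order of these sets was not the same at both distances. Farther than 100 kb from any protein-coding gene lay 208 regions (5.71%), against 6.91% of all regions and 2.99% of those called in 6. The median distance to the nearest annotated gene start was 27.4 kb (quartiles 9.38 and 73.0), against 25.6 kb for all regions and 8.74 kb for regions called in all 6. Within 1 kb of a start lay 9.73% (8.77 to 10.8), against 15.1% of all regions and 38.0% (37.4 to 38.7) of regions called in all 6. The share of regions that had the pattern ran over the autosomes from 3.58% on chromosome 8 to 4.82% on chromosome 3 and was 4.23% on X. Neighbouring regions of the pattern were 255 kb apart at the median, and 134 pairs lay within 10 kb of each other.

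**Figure D4:**
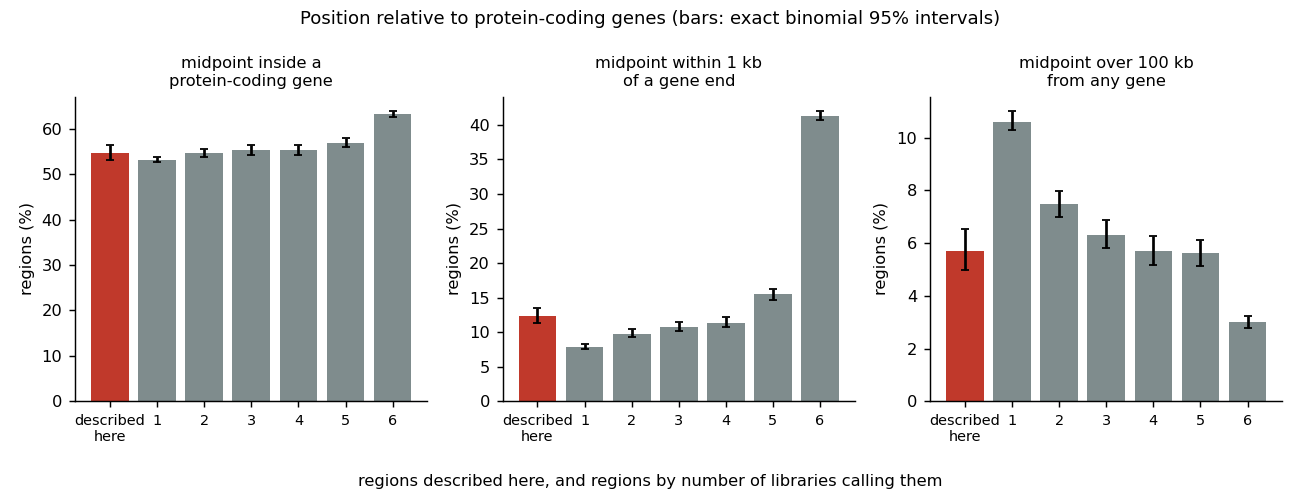
Percent of regions (y axes) with the midpoint inside a protein-coding gene, within 1 kb of a gene end, and over 100 kb from any gene, for the 3640 regions described here (red) and for regions by the number of libraries calling them (grey; the 4-library class includes the 3640). Bars are exact binomial 95% intervals. At gene ends the red bar, 12.4%, lies between those of regions called in 3 (10.8%) and 5 (15.5%) libraries.

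Of the 3536 regions outside chromosome 18, 324 (9.16%, interval 8.23 to 10.2) overlapped a promoter window, the 250 bases before to 50 after an annotated start. The share was 14.0% for all regions, 6.24% for regions called in 3 libraries, 12.4% for regions called in 5 and 39.3% for regions called in all 6. The 366 promoter windows at the 3640 regions held a median of 16.0 CpG in 300 bases, against 22.0 in windows at regions called in all 6 and 3.00 in windows without a region. An observed to expected CpG ratio of at least 0.6 was found in 53.6% of them, against 78.1% and 8.80%. The Pirb and Rbm41 stretches printed above are of the CpG-poor kind and that of Anpep of the CpG-rich kind. Windows whose most shared region was called in 3 and 5 libraries had medians of 14.0 and 17.0 CpG.

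**Figure D5:**
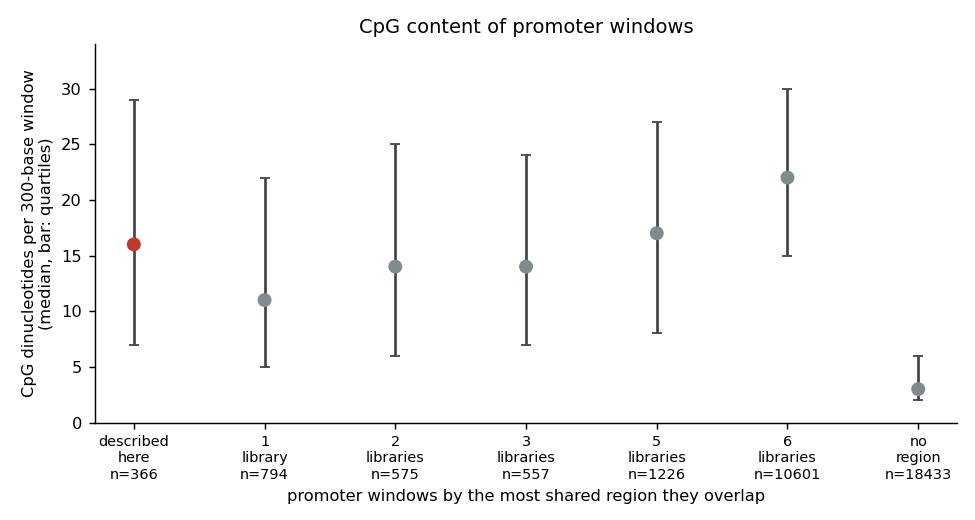
CpG dinucleotides per 300-base promoter window (y axis), with the number of windows. Points are medians and bars quartiles. Red marks windows overlapping a region described here, and grey marks windows by the number of libraries that called the most shared region they overlap. A red window that also overlaps a more shared region is counted in a grey class too. The median of 16.0 lies between those of the classes of 3 libraries (14.0) and 5 libraries (17.0).

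Motifs in these windows were counted as exact letters on both strands. The GC box GGGCGG, bound by SP and KLF factors, was present in 53.8% of the 366 windows, against 68.1% of windows at regions called in all 6 and 35.7% of all windows. The ETS letters CCGGAAG, shown in the Gcn1 promoter, were in 6.83%, against 20.7% and 8.86%, and the CCAAT box CCAAT, bound by NF-Y, in 24.6%, against 39.6% and 37.4%. For the CRE core TGACGTC of CREB and ATF factors the shares were 2.73%, 6.39% and 3.21%, and for the E-box CACGTG 6.83%, 11.1% and 7.15%. The windows of the 3640 lay above those of regions called in all 6, and below all windows, for the AP-1 letters TGANTCA, shown in the Gzmb promoter, at 7.38%, 4.07% and 7.81%, for the GATA letters AGATAA, at 9.56%, 5.22% and 11.2%, and for the TATA box TATAAA, at 9.02%, 5.87% and 13.6%. The RUNX letters TGTGGT were in 13.7%, 12.4% and 16.8%. The letters of the GC box, ETS motif, CRE core and E-box each hold a CpG. In windows of regions called in 3 libraries the ETS letters were in 5.03% and the GC box in 50.8%, close to the shares at the 3640.

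Calls in regions near the 3640 did not separate the groups. Within 10 kb lay 5458 other regions, and the percent of these that a library called, minus the percent of all 79353 other regions, was 2.08, −0.0564 and 2.86 points in tunicamycin replicates 1, 2 and 3 and 2.97, 2.14 and 0.306 points in DMSO replicates 1, 2 and 3. The groups overlap, and the lowest value belongs to tunicamycin replicate 2. The means were 1.63 ± 1.51 points after tunicamycin and 1.81 ± 1.36 points after DMSO (SD, n = 3 each), a difference of −0.179 points with p = 0.70 in a two-sided exact permutation test, where the smallest p that 3 against 3 libraries allow is 0.10. The sign of this difference turned with the width of the flank, with the q-value asked of flank peaks, and without tunicamycin replicate 2 (0.663 points) or DMSO replicate 1 (0.403 points). A peak of DMSO replicate 2 or 3 lay within 1 kb of 10.1% of the 3640 regions and within 10 kb of 53.8%, against 10.7% and 49.0% of the 10292 regions called in DMSO replicate 1 alone. Just inside the rule, 8 of the 3640 regions had a peak of DMSO replicate 2 or 3 no more than 100 bp away, and their median lowest percentile was 17.7. Just outside it, 2 regions called in 5 libraries owed the fifth call to an overlap of 50 bp or less, with a median of 22.2.

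The region of highest rank lay 20.2 kb from Map10, which encodes a microtubule-associated protein (chr8:125649362-125649877, mm10), with fold enrichments of 8.67, 10.2 and 9.25 in tunicamycin replicates 1, 2 and 3 and 12.5 in DMSO replicate 1. The next was far from any gene, 473 kb from Zfp462, a zinc finger protein (chr4:54471061-54471595), with fold enrichments of 10.2, 9.03 and 8.38 in tunicamycin and 11.8 in DMSO replicate 1. Both stood above the 80th percentile in every library that called them and had no peak in DMSO replicates 2 and 3. The third lay 327 kb from Mettl15, a mitochondrial rRNA methyltransferase (chr2:108764477-108765132). The others of the first 10 lay inside Zswim6, 28.6 kb from Sash1, a signalling scaffold, 0.778 kb from Mvk, the mevalonate kinase of sterol synthesis, inside the laminin gene Lama3, inside Skap1, an adaptor of T cell receptor signalling, 0.023 kb from Pirb, and 40.3 kb from Gm815. Of these the Mvk region (chr5:114461105-114461634) had fold enrichments of 7.58, 8.80 and 9.02 in tunicamycin and 8.59 in DMSO replicate 1, and the Skap1 region (chr11:96653864-96654238) had 7.99, 7.79 and 11.8 in tunicamycin and 8.39 in DMSO replicate 1. All 10 kept the pattern in lists of one length, which hold the peaks of highest −log10 q, so their high rank favoured this. The 3 of lowest rank lay inside Prkd2, a protein kinase, Spns2, a transporter of sphingosine-1-phosphate, and Ptma, prothymosin alpha. The Ptma region (chr1:86528000-86528406) had fold enrichments of 2.56, 1.85 and 2.71 in tunicamycin and 2.29 in DMSO replicate 1, at the bottom of all 4 lists.

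Within 100 kb, 3432 of the 3640 regions had a protein-coding gene. The genes nearest to them numbered 2797, 16.8% of the 16683 genes that were nearest to any region. Of the 2797 genes 2293 had 1 region of the pattern and 504 had 2 or more. Among the 2797, 74.0% were also the nearest gene of a region called in all 6 libraries, against 69.6% of all 16683 genes. For 110 genes every region assigned to the gene was of the pattern, which holds of itself where a gene had a single region. How many of the 110 had a single region, and the like count for other patterns, were not computed. The 110 are therefore no result about these genes. The largest number was 5, for Rbm19, Maml3, Rptor, Tbc1d1 and Mecom. Maml3 is a coactivator of Notch signalling, Rptor the raptor subunit of mTORC1, Tbc1d1 a Rab GTPase-activating protein and Rbm19 a protein of ribosome biogenesis. These were also genes with many regions in all, 48 for Maml3, 39 for Tbc1d1, 30 for Mecom, 29 for Rptor and 24 for Rbm19. Genes with 4 included Bloc1s4, for which they were 4 of the 7 regions nearest to it, Pde7b, Myof, Hivep3 and Irf2bpl. These counts assign regions by the nearest gene, and not all lay inside it. All 5 lay inside Maml3, Rptor and Mecom, but 3 inside Tbc1d1 and 1 inside Rbm19. Inside Pde7b lay 4, inside Myof and Hivep3 3 each, and inside Bloc1s4 and Irf2bpl 0.

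Mecom, whose EVI1 product is needed for HSC self-renewal, held all 5 of its regions inside the gene, and they were weak. The strongest (chr3:30206043-30206478) had fold enrichments of 4.44, 4.05 and 5.06 in tunicamycin replicates 1, 2 and 3 and 7.42 in DMSO replicate 1, and its lowest percentile was 20.1. The weakest (chr3:30507204-30507589) had 2.95, 2.73 and 2.92 in tunicamycin and 3.19 in DMSO replicate 1, at a lowest percentile of 0.375. DMSO replicate 1 had the highest value at both regions, but its fold enrichments were also the highest over all of its list, with a median of 6.03 against 5.45 to 5.58 in the tunicamycin lists. The strongest region lost the pattern with peaks of q at most 1e-05. Mecom was also nearest to 3 regions called in all 6 libraries.

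The factors of HSC identity as a list were nearest to 494 regions, of which 17 (3.44%, interval 2.02 to 5.45) had the pattern, against 4.44% of all 77261 regions within 100 kb of a gene. They belonged to 12 of 30 genes, among them the RUNX factor Runx1, the ETS factors Erg and Fli1, Meis1, Prdm16 and Zbtb16, and their median lowest percentile was 9.08, against 21.8 for all 3432. The region inside Zbtb16, the zinc finger repressor PLZF (chr9:48723411-48724280), was the strongest, with fold enrichments of 4.96, 4.86 and 5.37 in tunicamycin and 5.26 in DMSO replicate 1. That of Foxo3, a forkhead factor of HSC quiescence, lay 28.9 kb away, with 4.94, 5.14 and 4.49 in tunicamycin and 4.45 in DMSO replicate 1. HSC surface molecules had 6 of 145 regions (4.14%), at Cd48, Cd9, Fgd5, Itga2 and Kit. The one inside Fgd5, a gene used to mark HSCs (chr6:92013054-92013419), had 5.42, 6.51 and 7.56 in tunicamycin and 6.32 in DMSO replicate 1, and the one inside Cd48, which the sort selects against, had 5.63, 4.05 and 5.03 in tunicamycin and 6.13 in DMSO replicate 1 and did not keep the pattern at a q-value of at most 1e-05. Of the 48 regions named through a gene list, here and for the lists that follow, 37 kept the pattern with peaks of q at most 1e-05 and 0 in lists of one length.

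Genes of the stress responses that tunicamycin engages were not set apart by their counts. The ER stress list was nearest to 142 regions, of which 7 (4.93%, interval 2.00 to 9.89) had the pattern, at 5 of 38 genes, and 34 of the 38 were also nearest to a region called in all 6 libraries. Atf6, one of the ER stress sensors, held one inside the gene (chr1:170795737-170796194), with fold enrichments of 8.29, 5.61 and 6.49 in tunicamycin and 7.05 in DMSO replicate 1, and another outside it. The other ER stress genes were Sel1l and Os9, of ER-associated degradation, Sec61b, a subunit of the translocon, and Sil1, a nucleotide exchange factor of the chaperone BiP. At Sel1l (chr12:91816064-91816323) the fold enrichments were 5.46, 4.36 and 5.25 in tunicamycin and 4.22 in DMSO replicate 1. The integrated stress response had 5 of 136 regions (3.68%, 1.20 to 8.37), at Gpt2, an alanine aminotransferase, Eif4ebp1, the translation repressor 4E-BP1, Sesn2, a stress-induced inhibitor of mTORC1, Cebpb and Vldlr. The Gpt2 region, 2.79 kb from the gene (chr8:85531518-85531869), had 5.61, 5.90 and 6.61 in tunicamycin and 9.40 in DMSO replicate 1. That of Sesn2, 1.95 kb from the gene (chr4:132490655-132491059), had 3.72, 4.10 and 3.85 in tunicamycin and 6.80 in DMSO replicate 1. With peaks of q at most 1e-05 the regions at Sel1l, Eif4ebp1 and Sesn2 lost the pattern, and those at Gpt2 and inside Atf6 kept it.

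Markers of other blood and marrow cells covered a wide range. Neutrophil and monocyte markers had 10 of 91 regions with the pattern (11.0%, interval 5.40 to 19.3), the highest share of the 18 lists, at Itgam, Lyz2, Fcgr3, Cebpa, Cebpe, Ly6c1 and Spi1, and their median lowest percentile was 19.3. The strongest, inside Itgam, which encodes the integrin CD11b (chr7:128080007-128080475), had fold enrichments of 6.51, 8.29 and 7.55 in tunicamycin and 7.33 in DMSO replicate 1. The region at Lyz2, the lysozyme of myeloid cells, had its midpoint 0.037 kb from the annotated start of the gene (chr10:117282140-117282479). Its fold enrichments were 4.74, 5.40 and 5.08 in tunicamycin and 6.21 in DMSO replicate 1. Of the 20 genes of this list that were nearest to any region, 7 were nearest to one of the pattern and 10 to one called in all 6 libraries. The interval of the share is for this list alone and is not adjusted for its place as the highest of 18. Cells of these lineages and HSCs cannot be told apart in a peak list, and their part in the pattern was not tested.

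Lymphoid markers had 12 of 225 regions (5.33%), the strongest that at the Gzmb promoter, with others at the B cell factors Pax5 and Ebf1. Stroma and endothelium markers had 11 of 151 (7.28%, 3.69 to 12.7), including one inside Cdh5, the VE-cadherin of endothelium (chr8:104131430-104131924), with fold enrichments of 6.19, 7.79 and 4.87 in tunicamycin and 7.37 in DMSO replicate 1. Erythroid markers had 4 of 55 (7.27%), among them one inside Ank1, the ankyrin of the red cell membrane skeleton, and macrophage markers 4 of 79 (5.06%), among them Marco and C1qb. Megakaryocyte markers had 0 of 86, for which the exact interval reaches 4.20%, just under the 4.44% of all regions. The intervals of all other lists but neutrophils and monocytes contained that share.

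Of the remaining lists, interferon response genes had 8 of 131 regions (6.11%), among them Gbp2, Ifit3 and Irf8, and NF-kB and inflammation genes 9 of 161 (5.59%), among them Birc3, Nfkbiz and Ccl2. Cell cycle genes had 11 of 206 (5.34%), with Rb1, the retinoblastoma protein, the strongest at 8.11 kb from the gene (chr14:73333872-73334251) and fold enrichments of 7.89, 6.23 and 8.18 in tunicamycin and 9.78 in DMSO replicate 1. Apoptosis and p53 targets had 6 of 162 (3.70%), at Bcl2l11, Bmf and Trp53inp1, and cytokine and growth factor receptors 10 of 306 (3.27%), with Igf1r, Ifngr2 and Tgfbr3. Chromatin regulators had 7 of 222 (3.15%), with Dnmt3b, Eed and Ep300, and AP-1 and immediate early genes 4 of 191 (2.09%), at Klf6, Batf and Ier5. Housekeeping controls had 1 of 76 (1.32%), at Tfrc, the transferrin receptor, which the erythroid list holds too.

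Placed beside regions by the number of libraries that called them, the 3640 fell between those called in 3 and those called in 5 in some measures and not in others. Between them lay the share within 1 kb of a gene end (12.4%, between 10.8 and 15.5), the share within 1 kb of a start (9.73%, between 7.79 and 12.7), the share at a promoter window (9.16%, between 6.24 and 12.4) and the CpG count there (16.0, between 14.0 and 17.0). The lowest percentile and the width did so too, but a minimum over more lists and a union of more peaks change with the number of libraries by construction. Below both lay the share inside genes (54.7%, against 55.3% and 56.9%), the share within 5 kb of a gene end (26.6%, against 27.5% and 31.3%) and the CCAAT box (24.6%, against 25.7% and 28.8%) and RUNX letters (13.7%, against 15.3% and 16.0%) in promoter windows. The E-box, at 6.83%, was also below both. Above both lay the GATA letters (9.56%, against 8.44% and 6.61%) and the TATA box (9.02%, against 8.62% and 6.44%). Several of these gaps are small. The interval of the share inside genes, 53.1 to 56.4, holds 55.3%, and that of the share within 5 kb, 25.2 to 28.1, holds 27.5%. The GATA letters and TATA box were in 35 and 33 of 366 windows, and none of these orders was tested. Against the other sets of 4, which are called in as many libraries, the 3640 were higher in the lowest percentile (22.2 against 15.9) and wider (455 bp against 435 bp). Every other set includes DMSO replicate 2 or 3, so its lowest percentile is over other lists. In tunicamycin replicates 1, 2 and 3 and DMSO replicate 1 the median percentiles were 35.0, 45.2, 38.0 and 48.4 for the 3640. Those of the other sets were 29.7, 39.1, 31.6 and 44.8. By strength within their lists, the 3640 were peaks of lower to middle rank.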

How the data were processed

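Each library had its own ATAC-seq peak list, called without pooling. Per the submitters' processing notes the build is mm10 and the tools include Trim Galore 0.4.4, then MACS2, Picard, featureCounts and Bowtie2 2.2.9. Not given in the sources used here are their settings and any shift of read ends for the transposase. The authors deposited, for each peak, a fold enrichment (ratio to background), a −log10 p-value, a −log10 q-value, a summit and a display score. The largest q-value per list was 0.0482 to 0.04999, and 109 to 138 peaks per list on other sequences were left out. Fold and q-values rank or filter peaks within a list. The lists are not on one scale, and fold values of different lists stand side by side without a test.

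A region counted as called in a library that had a peak in it, and the strongest of several peaks gave its fold. By midpoint, each region was given to the nearest of 21887 protein-coding gene bodies in RefSeq's table for GRCm38.p6. Start sites and promoter windows were not used for chromosome 18, exons and introns were not distinguished, and sequence away from promoters was not analysed here. The log-linear fit was run on counts simulated from the same model, with 1 effect per library. That checks the fitting procedure and cannot show whether the model suits these data. The 3640 regions and the 18 gene lists (467 genes, all matched, 11 in more than 1 list) were chosen with earlier results of these data known. Named were the genes at the 10 regions of highest and 3 of lowest rank, the 10 genes with most regions, up to 3 genes per list by rank, and the 10 highest regions that kept the pattern in lists of one length. The promoters of Bnip1, Rbm41 and Anpep were named by rank among regions at promoters. Further genes of the lists, the Gcn1 promoter and the weakest Mecom region were chosen after their values were seen. Some genes that the naming rule selects are not reported here. Alternatives varied the q-value (at most 1e-05), the list length, the cover (50%), the extent of peaks (250 bp around summits), the chromosomes, distances and flanks, the replicate pairing and the libraries included. The software was Python 3.11.15 with SciPy 1.17.1, pandas 2.3.3, NumPy 2.4.6 and matplotlib 3.10.9.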

Additional observations from a re-analysis of the deposited data

How the results depend on the processing

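The number of regions with the pattern, 3640, was 3476 with q at most 1e-05, 3678 with summit windows, 4472 with 50% cover and 3579 on autosomes, and 519 in lists of one length, which hold fewer peaks. Leaving out 1 library eases the criterion, and the number was then 4207 to 10505, with 10505 without DMSO replicate 2 and 6094 without tunicamycin replicate 1. The median lowest percentile, 22.2, was 19.6 by −log10 q and 24.3 to 27.6 without 1 calling library. The share within 1 kb of a gene end, 12.4%, was 14.6% with q at most 1e-05, 17.7% in lists of one length, 19.9% with 50% cover, 12.8% with summit windows and 26.6% within 5 kb, and that inside genes, 54.7%, ran from 54.1% to 57.4%. The flank difference, tunicamycin minus DMSO, of −0.179 points turned to 0.542 with 50 kb flanks (exact p = 0.50) and to 0.760 with q at most 1e-05 (exact p = 0.60), and ran from −0.929 to 0.663 with 1 library left out, so no direction held. With the replicate block it was −0.179 (exact sign-flip p = 1.0). Same-numbered libraries correlated at −0.096, −0.090 and 0.024 in their deviations from the group mean of calls. Differences in list length also enter these deviations, so the values cannot show whether the replicate numbers pair the samples. Of the 70 regions named by the rule, 56 kept the pattern with q at most 1e-05, 14 in lists of one length, 52 with 50% cover and 68 with summit windows. The rule names some regions because they kept the pattern in lists of one length, so that count is partly fixed by the choice. The cause of these shifts was not tested. Read depth, unknown here, limits what a missing call in DMSO replicates 2 and 3 can show.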
